A study of Sus scrofa with 2 samples.

Results

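The genes of the cytosolic ribosome were followed in RNA sequencing counts from Rongchang pigs (Sus scrofa), a domestic breed, in brain and in liver. Members were the rows of the deposited count table whose product names a 40S, 60S or 60S acidic ribosomal protein, or whose gene name is RPL or RPS followed by a digit, leaving out mitochondrial ribosomal proteins and kinases. This rule took 115 of the 21653 genes in the table, 42 of the small 40S subunit and 73 of the large 60S subunit. The brain group is 1 library of frozen brain tissue and the liver group 1 library of frozen liver tissue, both of the Rongchang breed, with no treatment named. Genotype, age, sex and the region of the brain are not named, nor is the number of animals behind each library. Neither tissue has a second library, so differences have no test and no replicate check, and every interval below covers counting error only. Lower RNA per cell and fewer cells of a type cannot be told apart in whole tissue.

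The cytosolic ribosome builds all proteins encoded by the nuclear genome. Its 40S subunit binds and decodes the messenger RNA, and its 60S subunit joins amino acids and releases the growing chain through an exit tunnel. Each ribosome holds a single copy of nearly every ribosomal protein, and the mRNAs of these proteins start with a 5′ terminal oligopyrimidine (TOP) tract through which growth signals via mTOR govern their translation together. Liver makes plasma proteins for export, and neurons translate in part in their dendrites and axons.

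Counts summed to 23796843 in brain and to 31724498 in liver. Both matched their labels: all 5 neuronal markers were at 4-fold or more in brain, where STMN2 had 71119 counts against 10 in liver, and all 5 hepatocyte markers were at 4-fold or more in liver, where they took 28.5% of all counts against 0.0458% in brain. Values below are counts scaled with TMM, a method that sets the libraries level over most genes, and are given as scaled CPM, in which 1 CPM is 35.0 counts in brain and 21.6 in liver. They are not corrected for transcript length, so levels are compared between tissues and not between genes. The log2 ratio is brain over liver with a pseudocount of 1 CPM, over genes that reach 1 CPM in brain, in liver or in both. Folds of single genes are ratios of scaled CPM with no pseudocount.

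Of the 115 members, 62 were the main row of a ribosomal protein, 28 of the 40S and 34 of the 60S subunit. A further 7 were paralogues with a symbol of their own, and 46 were copies, rows whose product is named after a ribosomal protein but which carry no ribosomal gene symbol. Main rows held 96.1% of member counts in brain (Wilson 95% interval 96.0 to 96.1) and 96.1% in liver (96.0 to 96.1). Of the copies, RefSeq now lists 16 as pseudogenes and 9 as protein-coding, and 21 were not found in its gene table. In all, 87 members passed 1 CPM, among them 61 main rows, 6 paralogues and 20 copies. The 28 that did not pass were 26 copies, the testis-type paralogue RPL10L, with 0 brain and 2 liver counts, and the RPS16 row, with 13 brain and 9 liver counts.

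**Figure D1:**
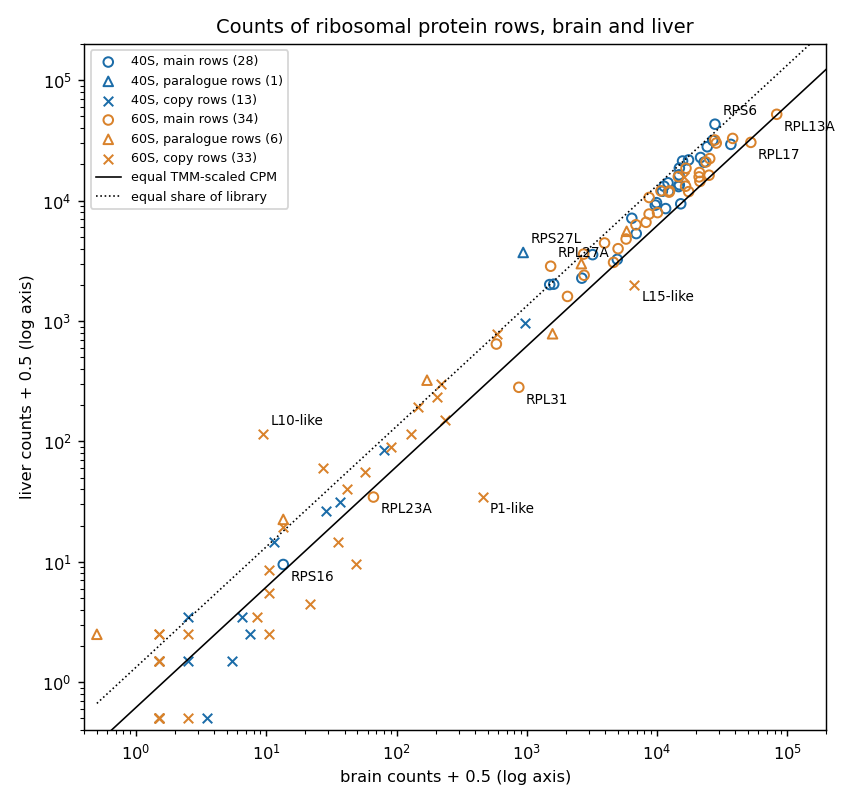
Brain counts (x) against liver counts (y) of the 115 members on log axes with 0.5 added, coloured by subunit, with circles for main rows, triangles for paralogues and crosses for copies. The solid line marks equal TMM-scaled CPM and the dotted line an equal share of each library; most members with high counts lie between the lines, while RPS27L and the L10-like row lie above both and the P1-like and L15-like rows below both.

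Ribosomal protein genes differed little among themselves in their brain to liver ratio, and lay to the liver side of the typical gene. Their median log2 ratio was -0.56, with the middle 50% of members between -0.87 and -0.34, against a median of 0.02 over the 15706 genes that passed, whose middle 50% spanned -0.97 to 1.14. On this scale 78 of the 87 members were lower in brain and 9 higher. Only 2 members were at 2-fold or more in brain, where 27.6% of all genes were, and 14 at 2-fold or more in liver, where 24.4% of all genes were. At 4-fold or more there was 1 in brain, the P1-like copy, against 14.6% of all genes, and 2 in liver, RPS27L and the L10-like copy, against 11.3% of all genes. The contrast in spread was smaller among genes with high counts. Within 1 of the members' median lay 92.0% of passing members and 45.1% of all passing genes. Among those with 500 counts or more in both libraries it was 95.5% of 67 members and 66.4% of 3820 genes. This window is centred on the members, so the shares reflect position as well as spread. The standard deviation of the log2 ratio was 0.63 in passing members and 2.23 in all passing genes. With 500 counts or more in both libraries it was 0.48 and 1.29.

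The direction of that median depended on the scaling, while its distance from the typical gene is nearly fixed whatever the scaling. With plain library size in place of TMM, all log2 ratios moved toward brain by 1.11 before the pseudocount, the median of the members became 0.46, and 77 of 86 members were above 0. The median of all genes became 0.98, so the members lay 0.52 below it, against 0.58 below it with TMM. Over the 5 scalings run, this distance ran from 0.52 to 0.64. A scaling moves all ratios together, so the distance can change only through the pseudocount and the filter. Its small range is therefore no check of the result. With plain library size 11 members were at 2-fold or more in brain, against 49.3% of all genes, and 2 in liver, against 12% of all genes. At 4-fold or more it was 2 in brain, against 24.2% of all genes, and 0 in liver, against 6.02%.

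**Figure D2:**
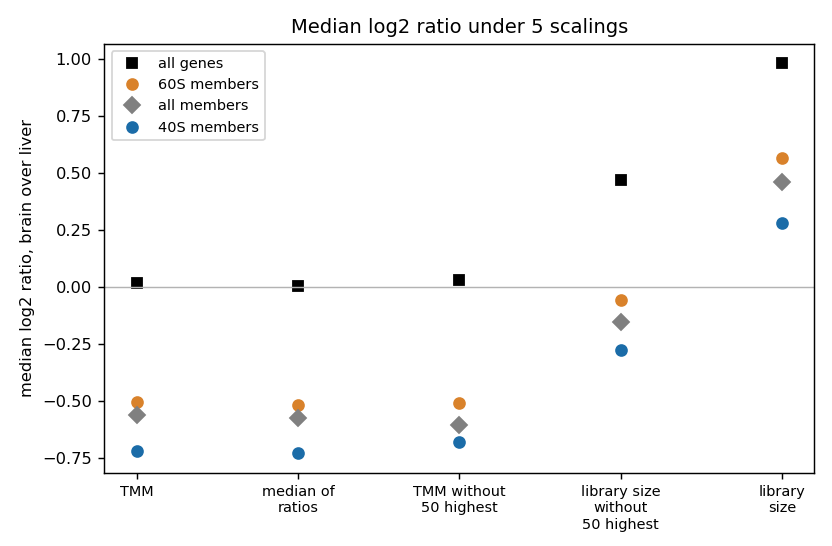
Median log2 ratio, brain over liver (y), of all genes (black squares), the 60S members, all members and the 40S members under 5 ways of scaling the libraries (x). The members lie below all genes, and the 40S below the 60S members, under each scaling, an order that a shift common to all genes nearly fixes. The median of all members runs from -0.61 with TMM without the 50 highest genes to 0.46 with plain library size.

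As a share of all counts, members took 4.004% of brain (Wilson 95% interval 3.997 to 4.012) and 2.76% of liver (2.75 to 2.76). Leaving out of the totals those of the 50 highest genes of either library that are not members, the shares were 5.24% in brain and 5.67% in liver, in the opposite order. Results below are therefore also given relative to the other ribosomal protein genes, a comparison that depends little on the scaling between libraries.

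The 2 subunits did not share the pool of ribosomal protein counts alike. The 40S members held 375657 of 952921 member counts in brain, 39.4% (Wilson 95% interval 39.3 to 39.5), and 398825 of 874826 in liver, 45.6% (45.5 to 45.7). Without RPL13A and RPS6, left out after their shares were seen, the values were 41.3% in brain and 45.6% in liver. With the 9 ribosomal protein genes that fall outside the rule added to the main rows they were 37.7% and 42.7%. The median log2 ratio was -0.72 for 32 members of the 40S and -0.51 for 55 of the 60S subunit, and with plain library size 0.28 and 0.56. Among the 67 members with 500 counts or more in both libraries, 20 of 29 in the 40S subunit lay below the median of all members, toward liver, and 9 above it. In the 60S subunit 16 lay below, 21 above and 1, RPL27, on it. At 2-fold or more in liver were 7 of 32 members of the 40S and 7 of 55 of the 60S subunit, both below the 24.4% of all genes.

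**Figure D3:**
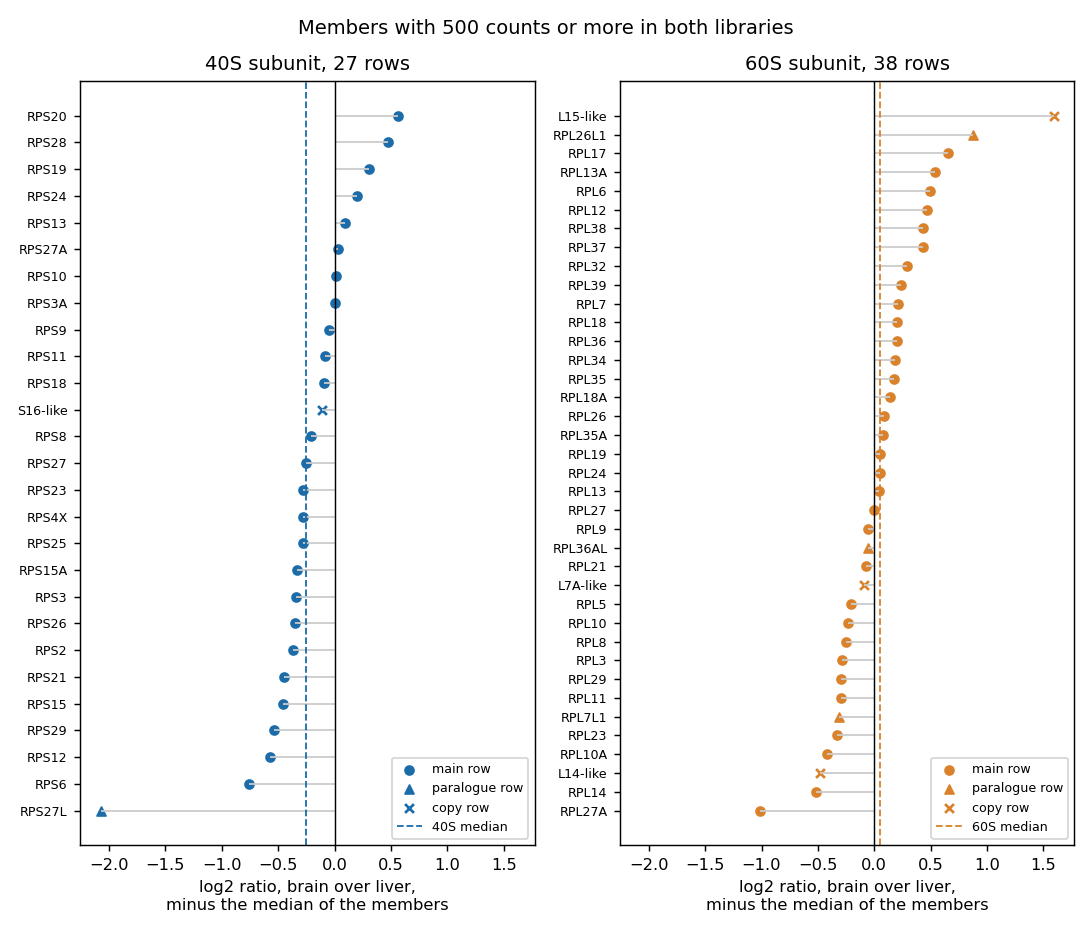
Log2 ratio, brain over liver, minus the median of all members (x) for 27 of the 29 members of the 40S and the 38 of the 60S subunit with 500 counts or more in both libraries (y). RPS27L at -2.07, RPL27A at -1.01 and the L15-like row at 1.59 lie 1 or more from the median of the members, and the dashed lines mark the median of each subunit.

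The 8 members with the most counts were the same in both libraries and took 33.8% of member counts in brain and 32.2% in liver. RPL13A, a 60S protein, had the most counts in each, 83123 in brain and 52114 in liver. It made up 8.72% of member counts in brain (Wilson 95% interval 8.67 to 8.78) and 5.96% in liver (5.91 to 6.01), while its scaled levels were nearly level at 2378 and 2413 CPM. RPL17, a protein at the exit tunnel, had 52606 brain and 30460 liver counts and made up 5.52% and 3.48%. RPS6 of the 40S subunit, the substrate of the S6 kinases, had 27901 brain and 43127 liver counts and made up 2.93% (2.89 to 2.96) and 4.93% (4.88 to 4.98). In the order of counts RPS6 was next after RPL13A in liver, and RPL17 was next after it in brain. The other 5 were RPL26, with 38148 brain and 32859 liver counts, RPS24 (36941 and 29316), RPL5 (28537 and 30078), RPL23 (27814 and 31888) and RPS2 (26821 and 31643). Their log2 ratios ran from -0.93 for RPS2 to -0.36 for RPS24, on both sides of the median of the members.

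At the liver end of the main rows stood RPL27A, a 60S protein, at 43.7 CPM in brain and 132 in liver. It was 3.02-fold higher in liver (95% interval 2.84 to 3.22), with a log2 ratio of -1.57, which was -1.01 relative to the median of the members. RPS6 followed at 798 CPM in brain and 1997 in liver, 2.50-fold higher in liver (2.46 to 2.54). With plain library size their log2 ratios were -0.48 and -0.21, still on the liver side. Next were the 40S genes RPS12 (-1.13) and RPS29 (-1.10), the 60S gene RPL14 (-1.08), and the 40S genes RPS15 (-1.02) and RPS21 (-1.01). In all, 8 of 61 main rows were at 2-fold or more in liver with TMM, a smaller share than the 24.4% of all genes. Of these 8, 6 belonged to the 40S subunit, and none was at 2-fold with plain library size, where RPL14, RPS15 and RPS21 were on the brain side, at 0.020 to 0.089.

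At the brain end stood RPL31, a protein at the rim of the exit tunnel, with 869 counts in brain and 281 in liver. At 24.9 against 13.0 CPM it was 1.91-fold higher in brain (95% interval 1.67 to 2.19), and its log2 ratio was 0.88, or 1.45 relative to the median of the members. Its protein had 5 rows, whose summed log2 ratio was 0.91. Whether reads of RPL31 were lost or split among them was not tested. The RPL23A row followed at 0.17, but it had 66 brain and 34 liver counts, and the interval of its 1.20-fold difference, 0.78 to 1.87, included none. RPL17 was at 0.09 and RPS20, which sits in the head of the 40S subunit, at 0.00, with 435.7 CPM in brain and 435.6 in liver. RPL13A (-0.02), the 60S gene RPL6 (-0.07), RPS28 (-0.09) and RPL12 (-0.10) completed the 8 main rows nearest to brain. All 8 were above the median of the members, RPL12, the lowest of them, by 0.47, and 6 of them belonged to the 60S subunit.

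The stalk of the 60S subunit recruits the elongation factors and consists of RPLP0 with RPLP1 and RPLP2, on a base that includes RPL12. RPL12 had 4641 brain and 3069 liver counts, 133 against 142 CPM. The stalk genes proper fall outside the rule by their product names. RPLP1 had 849 CPM in brain and 1505 in liver, a log2 ratio of -0.83, RPLP2 had 736 and 1117 (-0.60), and RPLP0 had 19.8 and 34.4 (-0.77). RPLP0 had 693 brain and 744 liver counts. All 4 were on the liver side with TMM and on the brain side with plain library size, RPLP1 being the lowest at 0.28.

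RPL5 and RPL11 join the 5S ribosomal RNA in a particle that, when free, binds MDM2, a ubiquitin ligase. They lay close together, RPL5 at 816 CPM in brain and 1393 in liver (-0.77) and RPL11 at 307 and 558 (-0.86). Among genes that make a ribosomal protein fused to ubiquitin or a ubiquitin-like protein, RPS27A had a log2 ratio of -0.53, and FAU, which makes S30 and is outside the rule, was at -0.93.

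In the list of exit tunnel proteins, whose genes line or ring the opening of the tunnel, the median log2 ratio was -0.36 over 10 genes, and in the list of decoding and mRNA channel proteins -0.90 over 7 genes with a row. These medians were 0.74 and 0.21 with plain library size, an order that a shift common to all genes nearly fixes. The tunnel genes are all of the 60S and the channel genes all of the 40S subunit. The difference between these lists therefore cannot be told apart from that between the subunits. RPL19 (-0.51), RPL26 (-0.48), RPL35 (-0.39), RPL39 (-0.33) and RPL38 (-0.13) were all above the median of the members, along with RPL31, RPL23A and RPL17. RPL4, outside the rule, was slightly below it at -0.62. RPL22, which the table lists under the name HBP15/L22 and which is outside the rule, stood apart at 10837 brain and 21125 liver counts, 310 against 978 CPM. It was 3.15-fold higher in liver (95% interval 3.08 to 3.23) and had the lowest log2 ratio of the standard set of ribosomal proteins, -1.65, and -0.55 with plain library size. Among the channel proteins RPS15 (-1.02), RPS2 (-0.93), RPS26 (-0.91), RPS3 (-0.90) and RPS23 (-0.84) lay below the median of the members, and RPS28 (-0.09) lay above it.

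Mutations in a set of ribosomal protein genes cause Diamond-Blackfan anaemia, a failure of red cell production. Of 18 such genes listed, 16 had a row, with a median log2 ratio of -0.52. RPS19, the gene most often affected, had 11657 brain and 8588 liver counts, 333 against 398 CPM (-0.25). The others lay between RPS29 (-1.10) and RPL31 (0.88), among them RPS24 (-0.36), RPL35A (-0.49), RPS10 (-0.55), RPL27 (-0.56), RPS27 (-0.81) and RPL18 (-0.36). Erythroid markers were higher in liver, with 3 of 5 having a row and all 3 lower in brain, at a summed 89.1 CPM in brain and 282 in liver. Their part in these ratios was not tested.

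Among the paralogues, RPS27L, a close relative of RPS27, stood farthest from the median of the members. It had 939 counts in brain and 3710 in liver, or 26.9 against 172 CPM. This was 6.39-fold higher in liver (95% interval 5.95 to 6.88), with a log2 ratio of -2.63, and -1.54 with plain library size. RPS27 itself had 10998 and 11962 counts, so RPS27L made up 7.87% of the pair in brain (Wilson 95% interval 7.40 to 8.36) and 23.7% in liver (23.0 to 24.3), a share that needs no scaling.

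The other paralogues differed less or were scarce. RPL26L1 went the other way, with 1578 brain and 783 liver counts, 1.25-fold higher in brain (95% interval 1.14 to 1.36) and 3.97% of the RPL26 pair in brain against 2.33% in liver. RPL36AL had more counts than RPL36A in both tissues, at 68.2% of the pair in brain (67.2 to 69.2) and 74.1% in liver (73.1 to 75.05). RPL7L1, a relative of RPL7, had 2626 and 2995 counts, 20.6% and 27.4% of its pair. RPL22L1 had 171 brain and 322 liver counts and was 3.05-fold higher in liver (2.52 to 3.69), as RPL22 was, so its share of the pair was 1.55% (1.34 to 1.80) in brain and 1.501% (1.35 to 1.67) in liver, intervals that overlap. RPL3L, the muscle form of RPL3, had 13 and 22 counts, 0.0777% and 0.118% of its pair.

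**Figure D4:**
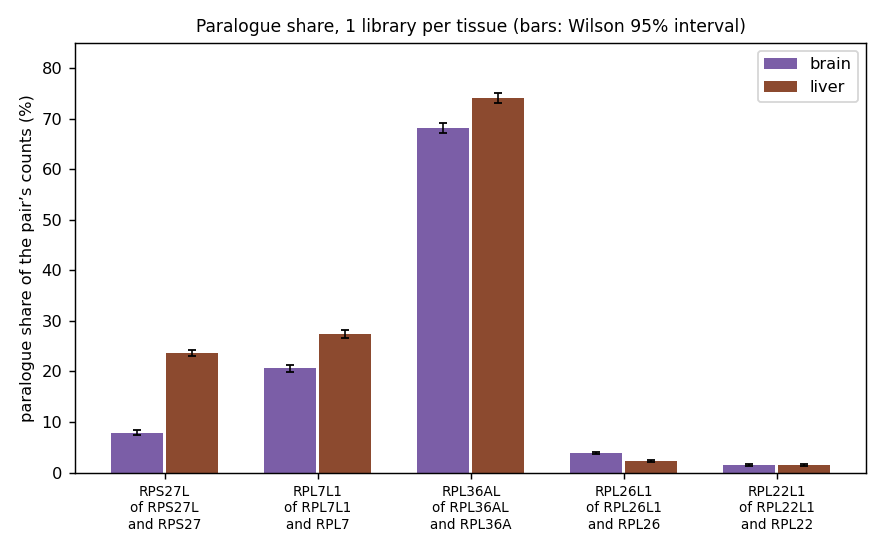
Share of each pair's counts held by the paralogue (y, percent) in the brain and liver library for 5 pairs (x), with Wilson 95% intervals that cover counting error only. The RPS27L share is 7.87% in brain and 23.7% in liver, while the RPL22L1 shares are alike.

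The copies were mostly scarce. Of 46, 23 had 10 counts or fewer in both libraries, 25 spanned under 1300 bp, and their median span was 1025 bp against 4490 bp for main rows. Copies that do not hold the most counts of their protein made up 0.193% of member counts in brain and 0.246% in liver. In 7 proteins the leading row was nonetheless a copy, and 3 of these had 500 counts or more in both libraries. The L7A-like row (LOC100525692) had 16040 brain and 15633 liver counts (-0.66), the L15-like row (LOC100620439) 6666 and 2007, and the S16-like row (LOC100623279) 962 and 959 (-0.67). These 3 rows spanned 31477, 7427 and 19136 bp and held 100%, 100% and 98.9% of their protein's counts. They may be the main genes RPL7A, RPL15 and RPS16 under other gene numbers, which could not be checked. RefSeq lists the L7A-like row as protein-coding but without a ribosomal gene symbol. The L15-like and S16-like rows were not found in its gene table, and RPS16 also had a row of its own, with 13 brain and 9 liver counts. The L15-like row was 2.05-fold higher in brain (95% interval 1.95 to 2.16), with a log2 ratio of 1.03, and 2.13 with plain library size. It was the only member with 500 counts or more in both libraries at 2-fold or more in brain with TMM.

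A few copies differed from the main gene of their protein, and others lay close to it. The P1-like row (LOC100153492), a transcribed pseudogene in RefSeq, had 459 brain and 34 liver counts and was 8.34-fold higher in brain (95% interval 5.88 to 12.2), while RPLP1 was on the liver side. The L10-like row (LOC100620856) had 9 brain and 114 liver counts and was 20.5-fold higher in liver (10.4 to 46.0), while RPL10, with 584 and 643 counts, was 1.78-fold higher there. The L31-like row (LOC100625352), a pseudogene in RefSeq, had 48 and 9 counts and was higher in brain (3.30-fold, 1.60 to 7.64), the same side as RPL31. The L14-like rows (LOC100623913 and LOC100739087), with log2 ratios of -1.04 and -1.04, lay close to RPL14. Reads of near-identical copies can be split or lost in counting, and how the authors treated them is not given in the sources used here, so ratios of copies and of main rows with many copies are uncertain.

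RPL10, RPL23A, RPS16 and RPLP0 had few counts next to other ribosomal protein genes, though each ribosome needs their proteins. With all rows of a protein summed, S16 reached 975 brain and 968 liver counts and L23A 108 and 74. Of the 79 standard ribosomal protein symbols, 8 had no row matched by symbol, gene number or accession, namely RPS7, RPS14, RPL7A, RPL15, RPL28, RPL30, RPL37A and RPL41. These main genes are not analysed here, unless the L7A-like and L15-like rows are RPL7A and RPL15, which could not be checked.

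Other genes of translation gave a background for the members. Of 17 other genes with TOP mRNAs, 15 had a row and passed, with a median log2 ratio of -0.69; 4 genes reached 2-fold in liver, a share near the 24.4% of all genes, and 1 did in brain, against 27.6% of all genes. The elongation factor genes EEF1A1 (-0.99) and EEF1G (-1.08) and the growth-related TPT1 (-1.63) lay toward liver, while EEF2 (0.38) and EIF4A2 (0.21) lay toward brain. NAP1L1, a histone chaperone gene, was the 1 at 2-fold or more in brain (1.16). The median was 0.41 with plain library size.

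Genes that build ribosomes lay nearer to the typical gene. Of 64 biogenesis genes, 56 had a row and 55 passed, with a median of -0.21; 6 reached 2-fold in liver, against 24.4% of all genes, and RRP12 alone did in brain (1.36), against 27.6%. NPM1, a nucleolar chaperone, was at -1.18, NOP58, of the box C/D particles, at 0.57, UTP20 at -0.35 and NSA2 at -0.05. HEATR1, which acts in RNA polymerase I transcription and in 40S assembly, had 681 brain and 2821 liver counts and was 6.70-fold higher in liver (95% interval 6.16 to 7.30). Of 18 RNA polymerase I symbols 14 had a row, with a median of 0.18; 3 reached 2-fold in brain, a share below the 27.6% of all genes, and 0 did in liver, against 24.4%. UBTF, which binds the ribosomal DNA, was at 0.44, POLR1A, the largest subunit, at 0.31, POLR1D at -0.54 and CD3EAP at 1.36.

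Of 21 growth control genes, 20 passed, with a median of -0.35; 7 reached 2-fold in liver, against 24.4% of all genes, and 0 did in brain, against 27.6%. MTOR was at 0.51, its activator RHEB at 0.02, and RPS6KB1, the S6 kinase gene, at -1.32. The translation repressor EIF4EBP2, a target of mTOR, was at -1.26, and EIF4E, which it binds, at -0.35. With plain library size 0 of these 20 reached 2-fold in liver, against 12% of all genes, and 9 did in brain, a share near the 49.3% of all genes. Proliferation markers were higher in liver, with 5 of 6 having a row and all 5 lower in brain with TMM, at a summed 60.7 CPM in brain and 346 in liver. Lymphocyte markers were near 0, at a summed 1.001 and 4.91 CPM over 6 genes. The part of these cells in the ratios of the members was not tested.

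**Figure D5:**
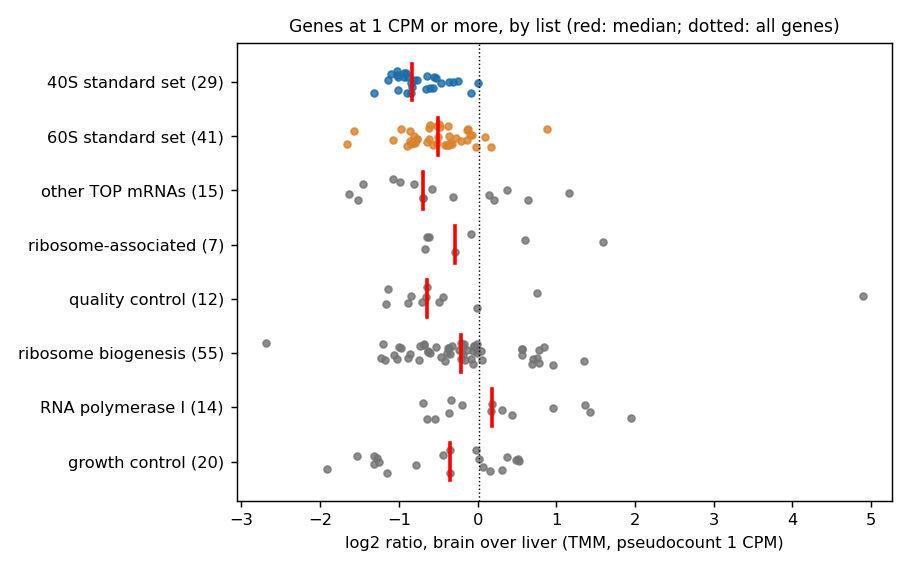
Log2 ratio, brain over liver, with TMM (x) of the genes at 1 CPM or more in 8 lists (y, number of genes in brackets), with red bars at list medians and a dotted line at the median of all genes. The standard 40S genes have a median of -0.84 and the 60S genes of -0.51, with the TOP mRNAs between them, the biogenesis genes at -0.21 and the RNA polymerase I genes at 0.18.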

How the data were processed

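RNA from brain and liver tissue of Rongchang pigs was extracted with RNAiso Plus and sequenced with standard Illumina libraries, 1 per tissue, per the labels' protocols. The authors deposited raw counts per gene; that they are counts was read from whole numbers with unequal totals. Reads were aligned with TopHat to Sscrofa10.2 (susScr3), per the submitters' processing notes. For the TopHat version, the counting program and use of strand, nothing is given in the sources used here, so reads of overlapping and antisense genes may be shared. A gene length deposited by the authors (other unit, in bp) was read here as genomic span with introns, so counts were not scaled by length. No sequences are shown because no reference sequence was used here.

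The table has 21817 rows, summed by name to 21653 genes. Each of the 115 members had a single row. Numbered rows took a RefSeq symbol (assembly Sscrofa11.1, used for names only) by gene number, which matched 23 of 69 numbered members, and 355 rows of the table were matched by transcript accession. Scaling used the TMM method of edgeR (version 4.0.16 under R 4.3.3), with factors of 1.47 for brain and 0.681 for liver and no test from that package. Fold intervals are exact conditional binomial intervals at 95%, and shares have Wilson intervals. A floor of 3 counts, 0.0858 CPM in brain and 0.139 in liver, applies at 0 counts, and no fold was given for such rows. The procedure was also run on simulated counts in which few genes differed, so that run cannot check the scaling between tissues as unlike as these.

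Members and gene lists were chosen with earlier results of these data known. Named genes were the 8 members with the most counts in each library, the 8 highest and 8 lowest ratios among main rows, members 1 or more from the members' median, paralogues, genes of the role lists, and up to 4 abundant genes of each other list with those at 4-fold or more. The copies L7A-like, S16-like and L14-like and the rows summed per protein, and in the other lists EEF1G, TPT1, NAP1L1, RRP12, RPS6KB1 and EIF4EBP2, were chosen after their values were seen. A few genes that the rule names are not reported here. Other settings were median-of-ratios (DESeq2 1.42.0), plain library size, TMM without the 50 highest genes, pseudocounts of 0.1 and 5, no filter or 5 CPM, the highest row per name and main rows alone. Ratios of named genes were also centred on the median of the members. Library size without the 50 highest genes, the leading row per protein, the standard set with rows outside the rule and the omission of RPL13A and RPS6 were added after the data were seen.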

Additional observations from a re-analysis of the deposited data

How the results depend on the processing

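No paired analysis was possible because each tissue has 1 library and no result comes from a test. With plain library size the median log2 ratio of the members turned from -0.56 to 0.46, that of the 40S genes from -0.72 to 0.28 and that of the 60S genes from -0.51 to 0.56. The counts at 2-fold or more went from 2 to 11 in brain and from 14 to 2 in liver. The shares of all genes went from 27.6% to 49.3% and from 24.4% to 12%. At 4-fold or more the counts went from 1 to 2 and from 2 to 0. There the shares of all genes went from 14.6% to 24.2% and from 11.3% to 6.02%. The sign changed for 29 of 45 named genes, among them 3 that were at 2-fold or more in liver with TMM, RPL14 (0.020), RPS15 (0.089) and RPS21 (0.086). With library size without the 50 highest genes the 3 medians were -0.15, -0.28 and -0.061. Of 89 members 4 were at 2-fold or more in each tissue, against 6073 of 16626 genes in brain and 3056 in liver. The size of these shifts follows from the scaling itself, since all ratios move together.

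The median of all members was -0.62 with a pseudocount of 0.1, -0.42 with no filter, -0.63 with a filter at 5 CPM and -0.61 for the standard set with rows outside the rule. Those of the 40S and 60S genes were -0.57 and -0.37 with no filter, and that of the 60S genes -0.43 with a pseudocount of 5. A pseudocount of 5 left 1 and 9 members at 2-fold or more in brain and liver and 0 and 1 at 4-fold or more. For main rows alone these counts were 0 and 8, and 0 and 0 at 4-fold or more; with rows outside the rule, 0 in brain at 2-fold and 0 and 0 at 4-fold or more. For the leading row of each protein 1 member was at 4-fold or more in liver. Main rows alone leave out the paralogues and copies, and for the other settings the cause was not tested.

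The 40S share of member counts in brain and liver was 40.8% and 46.9% for main rows, 37.7% and 42.7% with rows outside the rule, and 41.3% in brain without RPL13A and RPS6, lower in brain each time. The share of all counts was 3.85% and 2.65% for main rows, and 5.24% and 5.67% without the 50 highest other genes. Median-of-ratios and TMM without the 50 highest genes moved each of the 45 named genes by no more than its counting interval, and each changed the sign of 1. Centring on the median of the members, which takes -0.56 off each log2 ratio, changed the sign of 17 of the 45. Ratios of members with under 100 counts are limited by depth.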

Other observations

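Among genes that guard translation 10 of 12 were below 0 with TMM, and of proteins that attach to ribosomes 5 of 7. Most members were on this side, as were 7805 of all 15706 genes. With plain library size 2 of 12 and 0 of 7 were below 0, at medians of 0.39 and 0.82, against 3876 of 15959 genes. Of 16 quality control symbols 12 had a row, with a median log2 ratio of -0.65, and ABCE1, which splits ribosomes after termination, was at -1.14 and HBS1L, which rescues stalled ribosomes, at -0.71. RACK1, a scaffold on the 40S subunit that the table lists as GNB2L1, had 11524 brain and 11103 liver counts (-0.64), and NEMF, which marks stalled chains on the 60S subunit, was at 0.75. TCF25, a partner of the ribosome quality control complex, stood apart with 21761 brain and 432 liver counts, 31.1-fold higher in brain (95% interval 28.3 to 34.3). Of 9 ribosome-associated symbols 7 had a row, with a median of -0.28, among them SERBP1, which clamps idle ribosomes, at -0.09, NACA at -0.28, BTF3 at -0.66 and, chosen after its value was seen, HABP4, a relative of SERBP1, at 1.60.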
